A study of Mus musculus with 61 samples.

Results

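The comparison set 4 lacrimal gland arrays of NOD mice given LTBR-Ig against 7 lacrimal gland arrays of control NOD mice at week 12, out of 61 arrays in the series and 31 of lacrimal gland. The arrays were chosen by their titles. The LTBR-Ig group was labelled mLTBR-mIgG1, a decoy in which the mouse lymphotoxin-beta receptor is joined to the Fc of mouse IgG1. The controls were 4 arrays of mice given MOPC-21, a mouse antibody used as the control protein, and 3 arrays of untreated mice, replicates 2, 3 and 4. All the mice were of the NOD strain and male according to the methods. Weeks are weeks of age in the paper, and treatment ran from week 8, so that week 12 stood for 4 weeks of LTBR-Ig. In the methods, a lacrimal sample holds the pooled pair of glands of 1 mouse and the 4 mice of a group are its biological replicates, while the labels number the replicates and do not tie an array to a mouse.

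Lymphotoxin made by lymphocytes signals through the lymphotoxin-beta receptor on stromal and endothelial cells, in part through NF-kB. In lymph nodes this signal keeps up the high endothelial venules (HEV), the vessels through which lymphocytes enter, and the chemokines that draw B and T cells together. Male NOD mice develop lymphocyte infiltrates with such vessels in the lacrimal gland, where they serve as a model of Sjögren's syndrome. A soluble receptor of the LTBR-Ig kind binds the ligands and keeps them from the receptor.

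The tissue was checked against its markers before any comparison. The 21 genes of the lacrimal secretory machinery averaged 7.74 to 7.89 on the log2 scale in the LTBR-Ig arrays and 7.64 to 7.84 in the control arrays, and Aqp5, the water channel of secretory acini, lay at 9.64 to 10.34 in LTBR-Ig arrays and 9.46 to 10.17 in controls. Salivary genes were also present in some arrays. Amy1, the amylase of parotid gland, was 13.82, 8.84, 5.66 and 3.53 in LTBR-Ig replicates 1 to 4, against 13.87, 7.83, 3.74 and 3.90 in the MOPC-21 replicates and 12.49, 6.31 and 3.84 in untreated replicates 2 to 4. It exceeded 8 in 2 LTBR-Ig and 2 control arrays, so results are also given without those 4 arrays. The share of probe sets above a log2 value of 4 was 39.2 to 39.7% in LTBR-Ig arrays and 38.7 to 40.0% in controls. The Gapdh probe sets for the end of the transcript read -0.54 to -0.24 relative to those for its beginning in LTBR-Ig arrays and -0.66 to -0.55 in controls, without overlap. The same measure for Actb was 1.81 to 2.26 in LTBR-Ig arrays and 1.73 to 1.95 in controls, with overlap. The part of these differences in the results was not tested.

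After 4 weeks of LTBR-Ig few genes were called different from the controls. Of 19439 probe sets tested, 11 were called changed (0.0566%), 6 higher (0.0309%) and 5 lower (0.0257%), by a difference of at least 2-fold whose limma p, adjusted after Benjamini and Hochberg, was under 0.05. They stood for 9 of 9944 genes (0.0905%), of which 6 were higher (0.0603%) and 3 lower (0.0302%), and for 1 probe set without a single gene symbol. That probe set read 4.68 to 5.55 in LTBR-Ig arrays and 5.87 to 7.17 in controls (difference -1.38, SE 0.23, adjusted p = 0.0052). Glycam1, Serpina1b and Enpep fell, and Fcgr4, Gpr31b, Mgp, Aldh1a2, Selp and Saa3 rose. The LTBR-Ig and control arrays did not overlap in any of these 9 genes, and they did not overlap in 0.915% of all genes tested. At fold 2 and an unadjusted p under 0.05 there were 79 higher (0.406%) and 22 lower (0.113%) probe sets, 0.52% in all. These calls took the spread between replicates from all 31 lacrimal arrays. With the spread of the 11 week 12 arrays alone, limma called 0 probe sets, with 96 past fold 2 at an unadjusted p under 0.05, and the smallest adjusted p among the 9 genes was 0.054, for Glycam1 and Saa3. Without the 4 arrays high in Amy1, 7 probe sets were called, all of them lower, and of the 9 genes only Glycam1 kept its call.

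**Figure D1:**
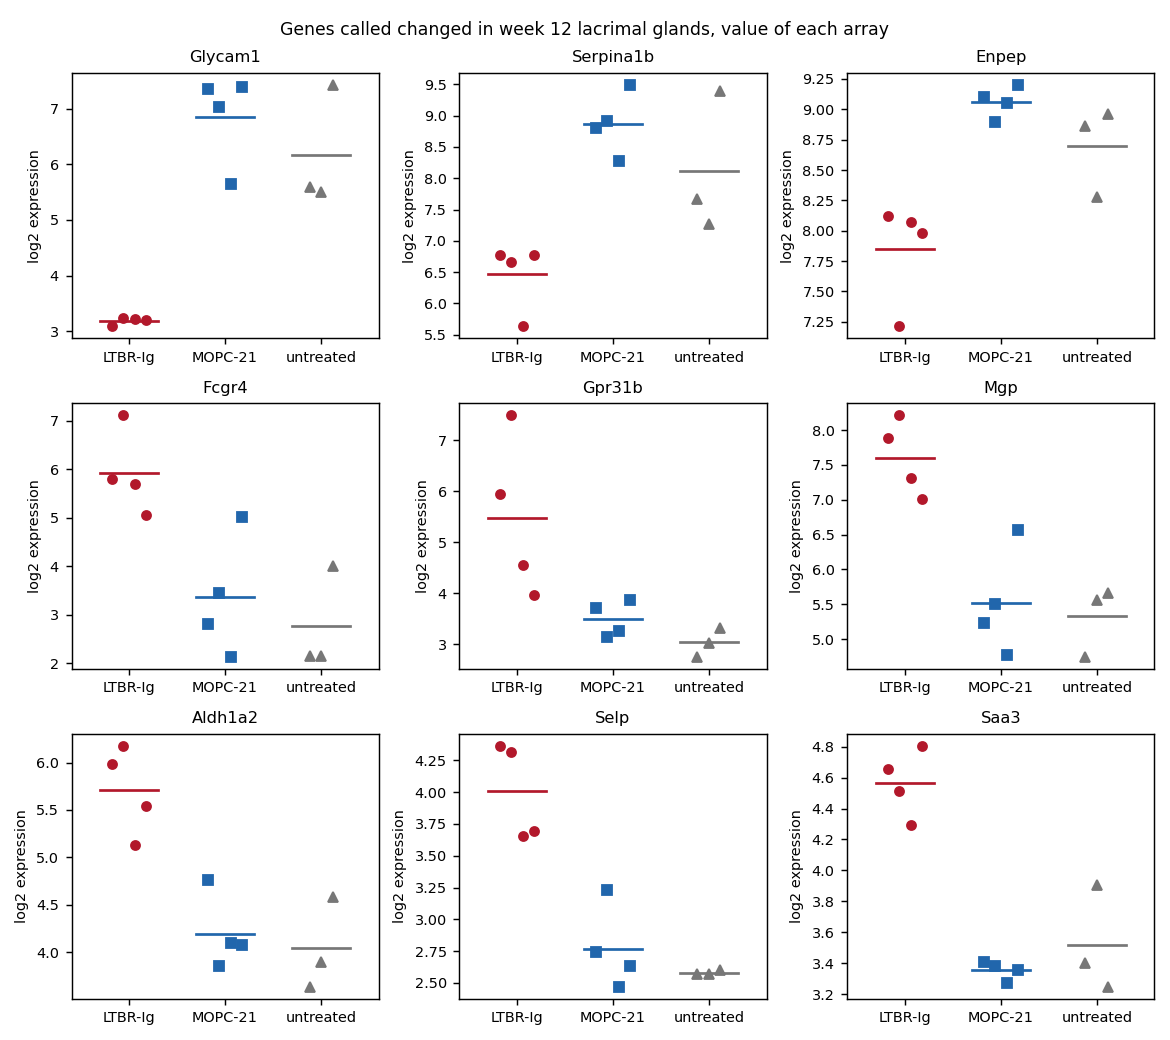
Log2 expression (vertical axes) of the 9 called genes in each week 12 lacrimal array of LTBR-Ig (circles), MOPC-21 (squares) and untreated mice (triangles), with the group mean as a line. The LTBR-Ig arrays lie below every control array for Glycam1, Serpina1b and Enpep and above every control array for the other 6 genes.

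The largest fall was that of Glycam1, which encodes the mucin-like scaffold that carries sulfated L-selectin ligands on HEV. It read 3.09, 3.24, 3.22 and 3.20 in the LTBR-Ig arrays, against 7.35, 7.03, 5.65 and 7.39 in MOPC-21 arrays and 5.60, 5.50 and 7.42 in untreated arrays. The LTBR-Ig values were close together and lay at the level of untreated glands of week 8, which were 2.98 to 3.17, whereas the controls were spread over almost 2 log2 units. The LTBR-Ig and week 8 values were all under a log2 value of 4, so their closeness does not show a return to the week 8 level. The difference of the deposited values was -3.38 (SE 0.39), with an adjusted p of 2.6e-05 in limma. No LTBR-Ig array was above a log2 value of 4, the level a probe set had to pass to be tested, and against that level Glycam1 was at least 5.91-fold lower. It passed against MOPC-21 alone (-3.67, adjusted p = 8.5e-06), against untreated mice alone (-2.99, adjusted p = 0.0021) and without the 4 arrays high in Amy1 (-3.39, adjusted p = 0.0064). It therefore entered the test through the control arrays.

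The promoter windows of the called genes were read because lymphotoxin-beta receptor signals reach promoters through NF-kB. RefSeq windows of the GRCm38.p6 assembly matched 8 of the 9 genes, all but Mgp. The NF-kB consensus, searched by that name on both strands, occurred in the 250 bases before the start of 1 of these 8 genes, Fcgr4, and in 3.9% of 32851 windows of the same length. The windows are shown for Glycam1, the gene with the largest fall (chr15:103565082-103565331, minus strand), and Fcgr4, the gene with the largest rise in the deposited values (chr1:171018676-171018925, plus strand). Capitals mark the NF-kB match, which lies 152 to 143 bases before the start of Fcgr4.
Glycam1: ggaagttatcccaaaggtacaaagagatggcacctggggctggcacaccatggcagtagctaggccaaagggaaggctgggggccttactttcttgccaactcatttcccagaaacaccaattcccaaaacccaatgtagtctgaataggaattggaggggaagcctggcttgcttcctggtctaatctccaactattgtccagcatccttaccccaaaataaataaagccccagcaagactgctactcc
Fcgr4: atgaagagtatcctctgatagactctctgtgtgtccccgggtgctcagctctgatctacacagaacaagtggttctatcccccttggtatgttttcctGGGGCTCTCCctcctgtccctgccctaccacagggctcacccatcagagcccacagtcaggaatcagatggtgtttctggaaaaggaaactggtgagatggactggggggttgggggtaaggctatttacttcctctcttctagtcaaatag
A match is a description of these letters, and the absence of one in the Glycam1 window says only that the consensus is not in it.

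Serpina1b, a serine protease inhibitor of the alpha-1-antitrypsin family, fell in both of its probe sets. The one with the higher level read 6.78, 6.66, 5.64 and 6.78 in the LTBR-Ig arrays, against 8.80, 8.91, 8.28 and 9.48 in MOPC-21 arrays and 7.67, 7.27 and 9.40 in untreated arrays. All the LTBR-Ig values were under all the control values, though still above those of week 8, which were 3.27 to 4.84. The difference was -2.08 (SE 0.38, adjusted p = 0.010), and -2.02 (SE 0.38, adjusted p = 0.013) in the second probe set. Close copies of this gene lie beside it, and both probe sets are of the type that can bind several related transcripts, so the signal cannot be given to Serpina1b alone. Without LTBR-Ig replicate 3 the adjusted p was 0.052.

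Enpep, the aminopeptidase A that trims angiotensin II, was 8.12, 7.21, 8.07 and 7.98 in LTBR-Ig arrays, against 9.10, 8.89, 9.06 and 9.20 in MOPC-21 arrays and 8.86, 8.28 and 8.96 in untreated arrays. Its week 8 level was 8.58 to 9.05, so that here the LTBR-Ig arrays lay below both the controls of their own age and the younger glands. The difference was -1.06 (SE 0.16, adjusted p = 0.0026), close to the fold threshold. When LTBR-Ig replicate 2, the lowest array, was left out, it was -0.85 and the call was lost. In untreated mice of week 8 its salivary level minus its lacrimal level was -3.51, and without the 4 arrays high in Amy1 its difference was -0.85 (adjusted p = 0.093). The part of salivary tissue in its fall was not tested.

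Fcgr4, an activating receptor for IgG on myeloid cells, was 5.80, 7.11, 5.70 and 5.06 in LTBR-Ig arrays, against 2.81, 3.46, 2.14 and 5.02 in MOPC-21 arrays and 2.14, 2.15 and 4.0 in untreated arrays. The lowest LTBR-Ig array and the highest MOPC-21 array almost met, while 3 of the 7 controls lay at the week 8 level of 2.13 to 2.15. The difference of the deposited values was 2.82 (SE 0.55, adjusted p = 0.017), the largest of the called rises, but 6 of the 7 controls were not above 4. The filter asked for at least 2 arrays above 4, so Fcgr4 passed it only with the help of LTBR-Ig arrays. With values not above 4 set to 4 the difference was at least 1.77, below the 2.17 of Mgp. It was 2.03 (adjusted p = 0.28) without the 4 arrays high in Amy1. Without LTBR-Ig replicate 1 or replicate 2 the call was lost, with an adjusted p of up to 0.14, and it was lost against MOPC-21 alone (adjusted p = 0.13).

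Gpr31b, a G protein-coupled receptor, was the most uneven of the 9. It was 5.94, 7.49, 4.55 and 3.97 in LTBR-Ig arrays, against 3.70, 3.13, 3.26 and 3.87 in MOPC-21 arrays and 2.76, 3.02 and 3.32 in untreated arrays. LTBR-Ig replicates 1 and 2 stood well above the rest, and replicate 4 was just above the highest control. The difference was 2.19 (SE 0.45, adjusted p = 0.031), and without the 4 arrays high in Amy1, which include LTBR-Ig replicates 1 and 2, it was 0.94 (adjusted p = 0.42). Leaving out LTBR-Ig replicate 1 or 2, MOPC-21 replicate 2 or 3, or untreated replicate 2 or 4 also ended the call. So did testing without the filter on low values (adjusted p = 0.065), which this gene had passed only through LTBR-Ig arrays, and setting it against MOPC-21 alone (adjusted p = 0.16).

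Mgp, the matrix Gla protein that restrains calcification, was 7.88, 8.21, 7.32 and 7.01 in LTBR-Ig arrays, against 5.23, 5.51, 4.78 and 6.57 in MOPC-21 arrays and 4.75, 5.56 and 5.67 in untreated arrays. Only MOPC-21 replicate 4 came near the LTBR-Ig values. The difference was 2.17 (SE 0.34, adjusted p = 0.0026) and kept its call without any single array, but without the 4 arrays high in Amy1 it was 1.55 (adjusted p = 0.17). In untreated mice of week 8 the Mgp probe set read 3.80 log2 units higher in the salivary gland than in the lacrimal gland, and the part of salivary tissue in its rise was not tested. The called probe set without a single symbol, which was lower in LTBR-Ig arrays, read 2.05 higher in the salivary gland by the same measure, and for the other 7 called genes it was -0.50 to -0.01.

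The other 3 genes that rose were Aldh1a2, Selp and Saa3. Aldh1a2, which makes retinoic acid from retinal, was 5.99, 6.18, 5.13 and 5.54 in LTBR-Ig arrays, against 4.76, 3.85, 4.10 and 4.07 in MOPC-21 arrays and 3.64, 3.90 and 4.59 in untreated arrays (difference 1.58, SE 0.29, adjusted p = 0.010). Selp, the P-selectin of activated endothelium and platelets, was 4.37, 4.32, 3.65 and 3.70 in LTBR-Ig arrays, against 2.75, 3.23, 2.47 and 2.64 in MOPC-21 arrays and 2.57, 2.57 and 2.60 in untreated arrays (difference 1.32, SE 0.23, adjusted p = 0.0080). Saa3, an acute-phase serum amyloid A protein, was 4.65, 4.52, 4.29 and 4.81 in LTBR-Ig arrays, against 3.41, 3.38, 3.27 and 3.36 in MOPC-21 arrays and 3.40, 3.91 and 3.25 in untreated arrays (difference 1.14, SE 0.17, adjusted p = 0.0016). For Selp and Saa3, as for Gpr31b, every control array was under 4, so these genes entered the test through the LTBR-Ig arrays alone, and with values under 4 set to it they were at least 1.13-fold (Selp), 1.48-fold (Saa3) and 2.82-fold (Gpr31b) higher. Aldh1a2 lost its call without LTBR-Ig replicate 1 or replicate 2, and Selp and Saa3 kept theirs without any single array. Against MOPC-21 alone the calls of Aldh1a2 (adjusted p = 0.064) and Selp (adjusted p = 0.052) were lost.

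Among 15 tested genes of HEV and addressins, Glycam1 fell, Selp rose and 13 did not pass, where 0.0905% of all genes were called, with a median difference of -0.01, where the median over all genes was -0.01. Vcam1, an adhesion molecule of activated endothelium, was 7.12 to 8.07 in LTBR-Ig arrays and 6.72 to 9.40 in controls. Chst2, which sulfates L-selectin ligands, was 3.19 to 4.43 in LTBR-Ig arrays and 2.82 to 4.27 in controls. Chst4 and Madcam1 were under a log2 value of 4 in all 11 arrays and were not tested. Enpp2, also in this list, had no probe set with a single symbol and was not analysed as a gene. Of 8 other genes of blood and lymphatic endothelium none passed (median -0.08).

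Genes of the leukocyte infiltrate overlapped widely between LTBR-Ig and control arrays at this age. The leukocyte level, the mean of 20 genes shared by white blood cells, was 8.70, 9.01, 7.67 and 7.89 in LTBR-Ig arrays, against 8.51, 8.27, 7.89 and 9.21 in MOPC-21 arrays and 7.14, 7.03 and 9.16 in untreated arrays, and 4.12 to 4.76 in the glands of week 8. The LTBR-Ig values lay inside the range of the controls, whose highest arrays were MOPC-21 replicate 4 and untreated replicate 4. In whole glands, fewer cells of a type and less RNA per cell cannot be told apart. None of the 26 B cell genes, 24 T cell genes, 8 genes of cytotoxic lymphocytes, 8 MHC class II genes or 14 plasma cell genes passed, with median differences of -0.06, 0.07, -0.07, 0.21 and -0.07. With 0.0905% of all genes called, a list of this size with none called is near the background and is not a result about its genes, here or in the lists that follow. Without the 4 arrays high in Amy1, which left 2 LTBR-Ig and 5 control arrays, the median of the B cell genes was -0.79 and that of the T cell genes -0.43, again with none called. The LTBR-Ig arrays left out, replicates 1 and 2, had the highest leukocyte levels of their group (8.70 and 9.01). The controls kept included those at 9.21 and 9.16. The omission therefore changed leukocyte content as well as Amy1, and the part of either in these medians was not tested.

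Cxcl13, the chemokine that draws B cells into follicles, was 10.25, 11.29, 9.42 and 9.38 in LTBR-Ig arrays, against 9.91, 10.12, 9.32 and 11.31 in MOPC-21 arrays and 8.31, 8.27 and 11.25 in untreated arrays. The groups overlapped fully, and the difference was 0.30 (SE 0.57, adjusted p = 0.96). Its sign was not settled, at -0.65 without the 4 arrays high in Amy1, -0.10 without LTBR-Ig replicate 2, -0.08 against MOPC-21 alone and 0.81 against untreated mice alone. Its receptor Cxcr5 was 3.37 to 5.93 in LTBR-Ig arrays and 3.38 to 7.05 in controls (difference -0.73, SE 0.61), and Ms4a1, the B cell antigen CD20, was 8.03 to 9.60 in LTBR-Ig arrays and 7.26 to 10.31 in controls (difference -0.10, SE 0.50). None of the 7 lymphoid chemokines and receptors tested passed, and Ccl19 and Ccl21a, chemokines of the T cell zone, had no probe set with a single symbol and were not analysed here. Cxcl12, Cxcl9 and Ccl20 differed by 0.10, 0.33 and 0.35, with adjusted p of 0.97, 0.91 and 0.93 in limma.

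Of 19 genes of lymphotoxin, BAFF and NF-kB signalling none was called, again near the background of 0.0905%, and their median was -0.16. Ltb, the membrane-bound ligand subunit, was 7.48 to 9.02 in LTBR-Ig arrays and 6.90 to 9.80 in controls. Ltbr, the receptor, was 6.60, 6.43, 6.66 and 7.08 in LTBR-Ig arrays and 6.29 to 6.58 in controls (difference 0.25, SE 0.14, adjusted p = 0.65). Nfkb2, the precursor of the p52 subunit, differed by -0.59 (SE 0.26) and Traf2, an adaptor of the receptor, by -0.48 (SE 0.17), with adjusted p of 0.51 and 0.37. Tnfsf13b, the B cell survival factor BAFF, was the one gene of the list past fold 2 at an unadjusted p under 0.05, with a difference of 1.02 (SE 0.33, adjusted p = 0.29).

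Pla2g2d, a secreted phospholipase of lymphoid organs, and Reg3g, an antimicrobial lectin, were lower on average without being called. Pla2g2d was 2.88, 2.62, 2.62 and 2.64 in LTBR-Ig arrays, against 4.86, 5.20, 4.50 and 5.90 in MOPC-21 arrays and 2.78, 2.66 and 5.46 in untreated arrays. All LTBR-Ig arrays, and untreated replicates 2 and 3, lay near the week 8 level of 2.60 to 2.64, all of them under 4. The difference was -1.79 (SE 0.43, adjusted p = 0.091), and -2.43 (adjusted p = 0.011) against MOPC-21 alone. Reg3g was 3.62, 2.65, 2.60 and 2.53 in LTBR-Ig arrays, against 4.43, 4.84, 3.93 and 6.57 in MOPC-21 arrays and 3.55, 2.46 and 5.91 in untreated arrays, with a difference of -1.68 (SE 0.53, adjusted p = 0.27) and overlapping groups. No LTBR-Ig array was above 4 for Pla2g2d or Reg3g, so both entered the test through control arrays. The heat shock genes Hspa1b and Hsph1 had smaller differences, -1.11 and -1.02, at an adjusted p of 0.19 each. Pla2g2d belongs to the list of stromal and follicular dendritic cell genes, of which 0 of 8 passed, and Reg3g to that of 13 antimicrobial and acute-phase genes, of which Saa3 rose and Serpina1b fell. Stromal and germinal centre genes, 0 of 4 of the second passing, had medians of -0.07 and -0.02.

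**Figure D2:**
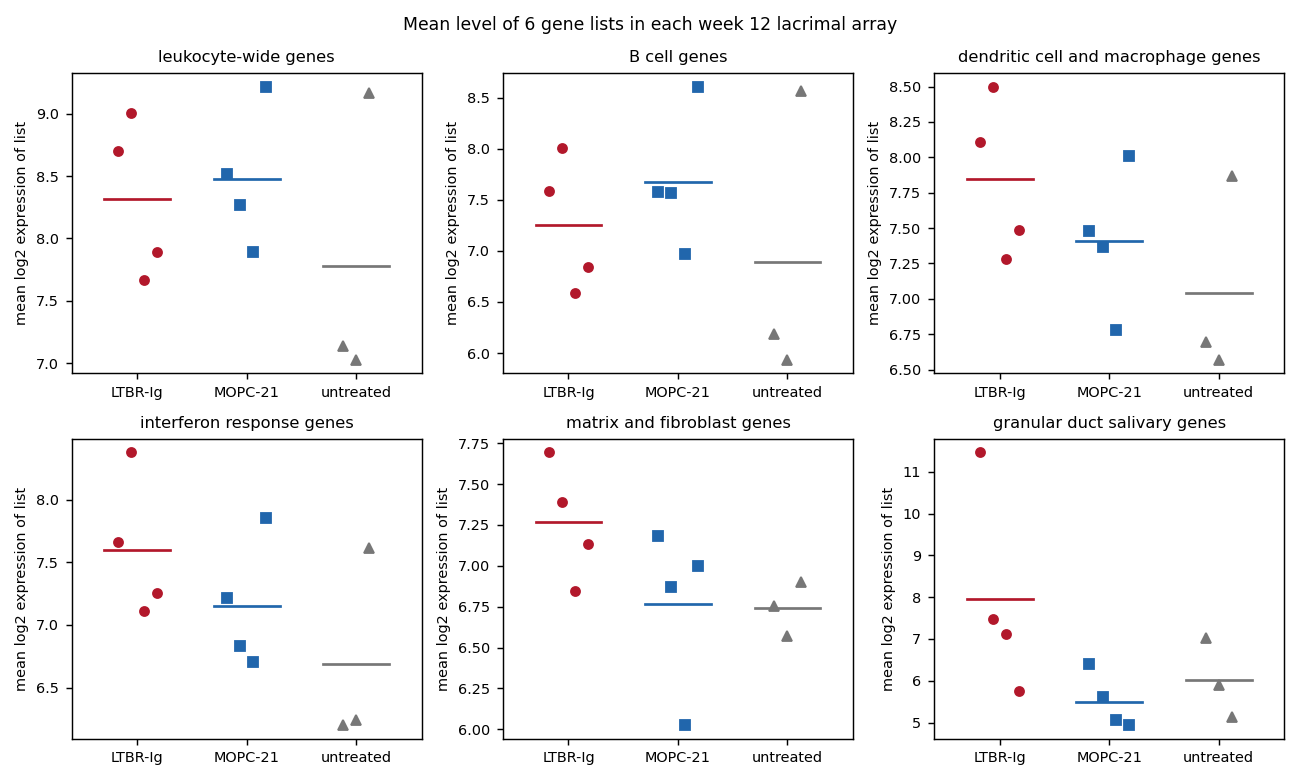
Mean log2 expression (vertical axes) of 6 gene lists in each week 12 lacrimal array of LTBR-Ig (circles), MOPC-21 (squares) and untreated mice (triangles), with the group mean as a line. Leukocyte and B cell levels overlap between the groups, interferon and macrophage levels lie higher on average in LTBR-Ig arrays with overlap, and the granular duct level is highest in LTBR-Ig replicate 1, at 11.47.

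Several lists of immune genes lay mostly on the positive side without a call. Of 22 genes of dendritic cells and macrophages 20 had a positive difference (median 0.58), as had 25 of 25 interferon response genes (median 0.68), 12 of 12 MHC class I and immunoproteasome genes (median 0.32), 16 of 20 inflammatory chemokines and receptors (median 0.36) and 8 of 12 complement genes (median 0.45). So did 17 of the 20 genes shared by white blood cells (median 0.14) and 6 of the 8 MHC class II genes (median 0.21), while 4552 of 9944 genes in all did. At fold 2 and an unadjusted p under 0.05 there were 4, 4, 0, 3 and 1 higher genes in the first 5 lists, against 0.583% of all genes. The 2 kinds of control differed in these lists as well. For MOPC-21 minus untreated the medians of the first 5 were 0.45, 0.41, 0.56, 0.44 and 0.20. Those of the white blood cell and MHC class II genes were 0.73 and 0.51, where that over all genes was 0.05. The part of the pooling in the positive side was not tested. Without the 4 arrays high in Amy1 the medians were 0.01 for dendritic cells and macrophages, 0.15 for the interferon response and -0.02 for inflammatory chemokines. As said above, this omission also removed the LTBR-Ig arrays with the highest leukocyte levels. Of 14 neutrophil and mast cell genes 2 were tested, and neither passed.

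Adgre1, the macrophage antigen F4/80, was 7.25, 7.99, 6.33 and 6.56 in LTBR-Ig arrays, against 6.08, 6.13, 5.54 and 6.43 in MOPC-21 arrays and 5.53, 5.45 and 6.30 in untreated arrays (difference 1.11, SE 0.31, adjusted p = 0.17). Slc11a1, a metal transporter of phagosomes, was 5.99, 7.11, 5.79 and 5.66 in LTBR-Ig arrays and 4.40 to 5.45 in controls, without overlap (difference 1.20, SE 0.29, adjusted p = 0.088). Irf7, a master regulator of type I interferon, was 6.34 to 8.23 in LTBR-Ig arrays and 5.05 to 6.99 in controls (difference 1.14, SE 0.42, adjusted p = 0.37). In each of these genes LTBR-Ig replicate 2 was the highest array, and it also had the highest leukocyte level of its group.

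Because leukocyte content differed so much between arrays, the comparison was repeated with the leukocyte level of each array as a covariate, a choice made after seeing the data. The covariate comes from the same arrays as the genes, and LTBR-Ig could itself act on it. With it, 33 genes were called (0.332%), 20 higher (0.201%) and 13 lower (0.131%), among them all 9 genes above. The higher ones included the Fc receptor genes Fcer1g (1.06, SE 0.14, adjusted p = 5.6e-05) and Fcgr1 (1.19, SE 0.19, adjusted p = 5.0e-04), the monocyte and macrophage genes Ms4a7 (1.20, SE 0.17), Adgre1 (1.01, SE 0.17), Slamf9 (1.33, SE 0.20) and Slc11a1 (1.12, SE 0.21), and the chemokine Ccl5 (1.01, SE 0.17). The lower ones included Pla2g2d (-1.92, SE 0.28), Reg3g (-1.82, SE 0.38), Stat4, which transmits interleukin signals in T cells (-1.29, SE 0.19), Fcer2a, the B cell antigen CD23 (-1.21, SE 0.21), and the T cell regulator Runx3 (-1.05, SE 0.18). No LTBR-Ig array was above 4 for Pla2g2d, Reg3g or Runx3, so these genes entered the test through control arrays. The sizes of their falls rest in part on values under that level. Stat4 was the 1 gene called of 24 in the T cell list and Fcer2a the 1 of 26 in the B cell list, and the heat shock genes Hspa1b (-1.17, SE 0.25) and Hsph1 (-1.07, SE 0.26) were lower as well. Of the dendritic cell and macrophage list 4 of 22 were called, all higher. So were 1 of 25 interferon response genes and 1 of 20 inflammatory chemokines and receptors. Leaving out each array in turn gave 25 to 47 genes, of which 19 to 33 were among the 33, the fewest when LTBR-Ig replicate 2 was left out. When the 4 arrays high in Amy1 were left out, there were 23 genes, 10 higher and 13 lower, and 15 of them were among the 33.

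**Figure D3:**
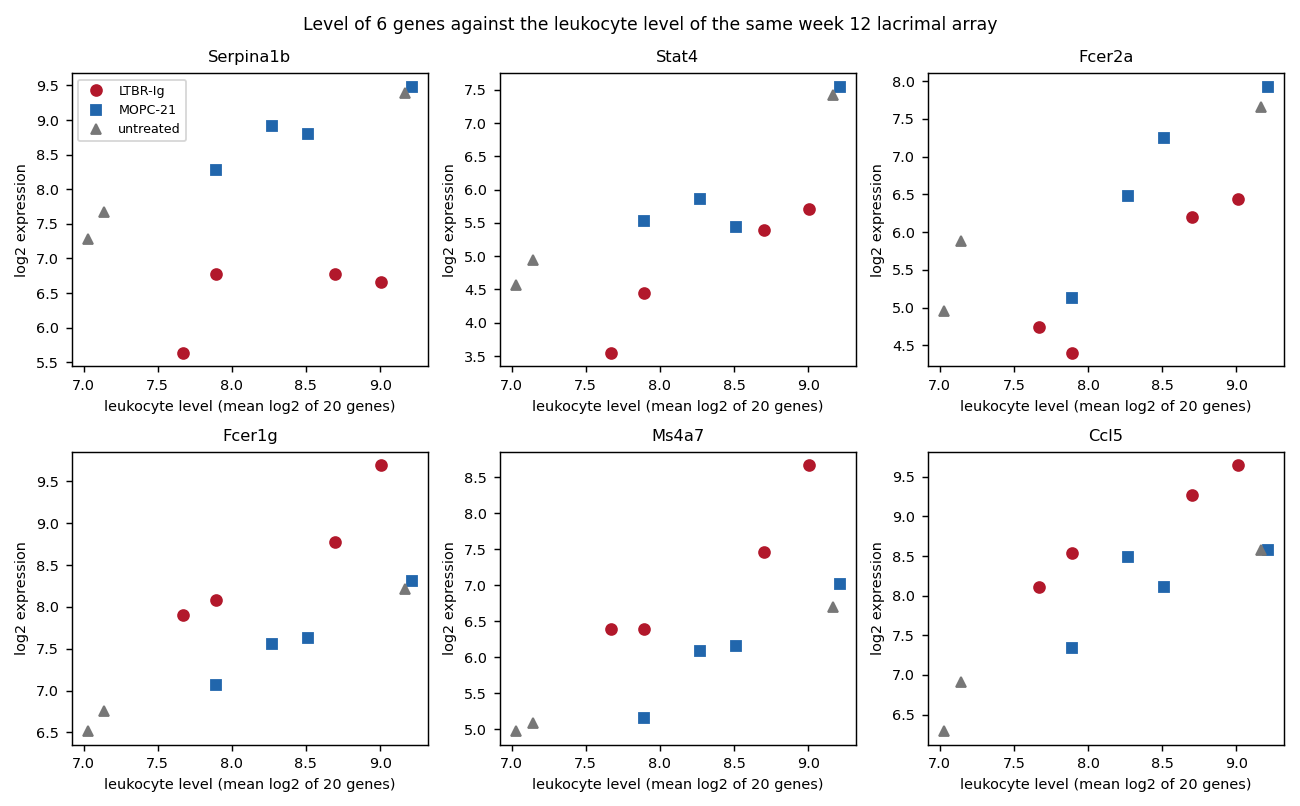
Log2 expression of Serpina1b, Stat4, Fcer2a, Fcer1g, Ms4a7 and Ccl5 (vertical axes) against the leukocyte level, the mean log2 value of 20 genes (horizontal axes), in each week 12 lacrimal array of LTBR-Ig (circles), MOPC-21 (squares) and untreated mice (triangles). At a similar leukocyte level the LTBR-Ig arrays lie lower for the first 3 genes and higher for the other 3, which were all picked from the genes called with the covariate.

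Ms4a7, a tetraspan membrane protein of macrophages, shows how the covariate acts. It was 7.46, 8.68, 6.40 and 6.39 in LTBR-Ig arrays, against 6.15, 6.09, 5.15 and 7.02 in MOPC-21 arrays and 5.08, 4.97 and 6.70 in untreated arrays, and the groups overlapped (difference 1.35, SE 0.45, adjusted p = 0.30). LTBR-Ig replicate 3 and MOPC-21 replicate 3, with leukocyte levels of 7.67 and 7.89, read 6.40 and 5.15. Stat4 ran the other way, at 5.40, 5.72, 3.55 and 4.44 in LTBR-Ig arrays, against 5.44, 5.86, 5.53 and 7.55 in MOPC-21 arrays and 4.95, 4.56 and 7.43 in untreated arrays. Its plain difference was -1.12 (SE 0.47, adjusted p = 0.47).

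Matrix and fibroblast genes also lay on the positive side, 18 of 19 of them, with a median of 0.60 and none called. Col1a1, a chain of type I collagen, was 6.70, 6.13, 5.57 and 6.32 in LTBR-Ig arrays, against 5.64, 5.38, 3.08 and 5.51 in MOPC-21 arrays and 5.20, 5.53 and 5.21 in untreated arrays (difference 1.10, SE 0.35, adjusted p = 0.28). MOPC-21 replicate 3 was far below the other controls. Mmp2, a collagenase of fibroblasts, was 7.83, 7.28, 6.87 and 6.87 in LTBR-Ig arrays and 5.34 to 6.96 in controls (difference 0.85, SE 0.25, adjusted p = 0.21). Mmp3, another matrix protease, differed by 1.13 (SE 0.41, adjusted p = 0.37). The 6 markers of fat tissue had a median of 0.50, the 3 markers of nerve one of 0.10 and the single erythroid marker, Alas2, a difference of -0.35, and none passed. No marker of skeletal muscle was above 4 in as many as 2 arrays.

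Genes typical of salivary gland had the largest median differences of all lists. Of 12 genes of granular ducts, 12 had a positive difference (median 2.50) and 10 were higher at fold 2 and an unadjusted p under 0.05, as were 0.583% of all genes, but none was called, and of 12 genes of submandibular and sublingual acini all were positive as well (median 1.97), with 5 past that mark. The 8 parotid genes had a median of 0.20. Klk1b16, a kallikrein protease of granular ducts, was 12.26, 7.67, 7.84 and 6.56 in LTBR-Ig arrays, against 5.22, 5.31, 4.69 and 4.58 in MOPC-21 arrays and 6.40, 5.99 and 4.89 in untreated arrays. The groups did not overlap, but LTBR-Ig replicate 1 was more than 4 log2 units above the next array (difference 3.29, SE 1.09, adjusted p = 0.30). Klk1b27, another of these kallikreins, was 9.67, 5.72, 5.60 and 4.23 in LTBR-Ig arrays and 2.91 to 4.06 in controls, also without overlap (difference 2.97, SE 0.96, adjusted p = 0.29). Without LTBR-Ig replicate 1 the differences were 2.06 for Klk1b16 and 1.85 for Klk1b27. The kallikrein genes are near-identical copies of each other, so that a probe set may read several of them.

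Mucl1, a mucin-like secreted protein, was 15.04, 11.81, 11.66 and 9.81 in LTBR-Ig arrays, against 9.15, 9.36, 9.12 and 8.63 in MOPC-21 arrays and 10.68, 10.26 and 8.82 in untreated arrays (difference 2.65, SE 1.21, adjusted p = 0.54). Crisp3, a cysteine-rich secreted protein of saliva, was 8.22 to 13.29 in LTBR-Ig arrays and 6.91 to 9.26 in controls (difference 2.73, SE 1.14, adjusted p = 0.47). Without LTBR-Ig replicate 1 the differences were 1.66 for Mucl1 and 1.80 for Crisp3. The mean level of the granular duct genes was 11.47, 7.48, 7.12 and 5.77 in LTBR-Ig arrays, against 6.39, 5.60, 5.06 and 4.94 in MOPC-21 arrays and 7.03, 5.91 and 5.12 in untreated arrays. Amy1 and the granular duct genes were both highest among LTBR-Ig arrays in replicate 1 and lowest in replicate 4. The controls high in Amy1, MOPC-21 replicate 1 (13.87) and untreated replicate 2 (12.49), had granular duct levels of 6.39 and 7.03. LTBR-Ig replicate 1, with Amy1 at 13.82, had 11.47. The part of salivary tissue in these differences was not tested. Without the 4 arrays high in Amy1 the median of the granular duct genes was 1.08 and that of the acinar genes 0.74. Among the gland's other lists, 0 of 21 genes of lacrimal secretory machinery, 0 of 14 ductal and myoepithelial genes, 0 of 18 genes of protein folding in the endoplasmic reticulum and 0 of 14 proliferation genes were called, at medians of 0.04, 0.05, -0.05 and -0.10.

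The 2 kinds of control were compared to see whether they could be pooled. Between MOPC-21 and untreated arrays at week 12 limma called 0 probe sets, with 82 past fold 2 at an unadjusted p under 0.05 (0.422%), of which 78 were higher (0.401%) and 4 lower (0.0206%) in MOPC-21. Without untreated replicate 4, whose leukocyte level was near that of MOPC-21 replicate 4 and above those of the other untreated arrays, 185 probe sets were called, 173 of them higher in MOPC-21. Against MOPC-21 alone, LTBR-Ig arrays had 10 called probe sets (0.0514%), 3 higher (0.0154%) and 7 lower (0.036%), and 7 of these 10 were among the 11 called against the pooled controls. Against untreated mice alone 1 was called (0.00514%), that of Glycam1.

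Week 16, after 8 weeks of LTBR-Ig, was used to place these values in time. Its own pooled controls and LTBR-Ig arrays, 12 in all, gave 1069 called probe sets (5.5%), 42 higher (0.216%) and 1027 lower (5.28%), under the same model, and 3 genes, Glycam1, Serpina1b and Mgp, were called at both weeks. Glycam1 differed by -4.34 at week 16 and -3.38 at week 12, and Serpina1b by -3.43 at week 16 and -2.08 at week 12. Mgp differed by 1.12 at week 16 and 2.17 at week 12. Amy1 also exceeded 8 in some arrays of week 16. They were LTBR-Ig replicates 3 (15.08) and 4 (12.22) and untreated replicates 1 (14.39) and 2 (15.31). The part of salivary tissue in the week 16 differences was not tested. For Fcgr4, Gpr31b and Selp the differences at week 16 were -0.04, 0.09 and 0.09. Across the 9944 genes the differences of both weeks correlated with r = 0.25, which is a description across genes and not across replicates.

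Whether an effect differed between the weeks was tested as the difference of both contrasts. No probe set passed, and the smallest adjusted p was 0.093, for Clint1, a clathrin adaptor (week 12 minus week 16 -0.49, SE 0.09). At fold 2 and an unadjusted p under 0.05 there were 1184 probe sets (6.09%), of which 1144 had the higher difference at week 12 (5.89%) and 40 the lower (0.206%). Among them was Cxcl13, at 0.30 in week 12 and -2.34 in week 16 (difference between weeks 2.64, unadjusted p = 0.0026, adjusted p = 0.11), whose week 12 sign turned with the settings named above. Batf, a transcription factor of activated lymphocytes, was at 0.99 in week 12 and -1.38 in week 16 (adjusted p = 0.11). That no probe set passed at the adjusted p rested on single arrays. The number passing was 560 without MOPC-21 replicate 4, 42 without LTBR-Ig replicate 3 and 3 without untreated replicate 4.

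**Figure D4:**
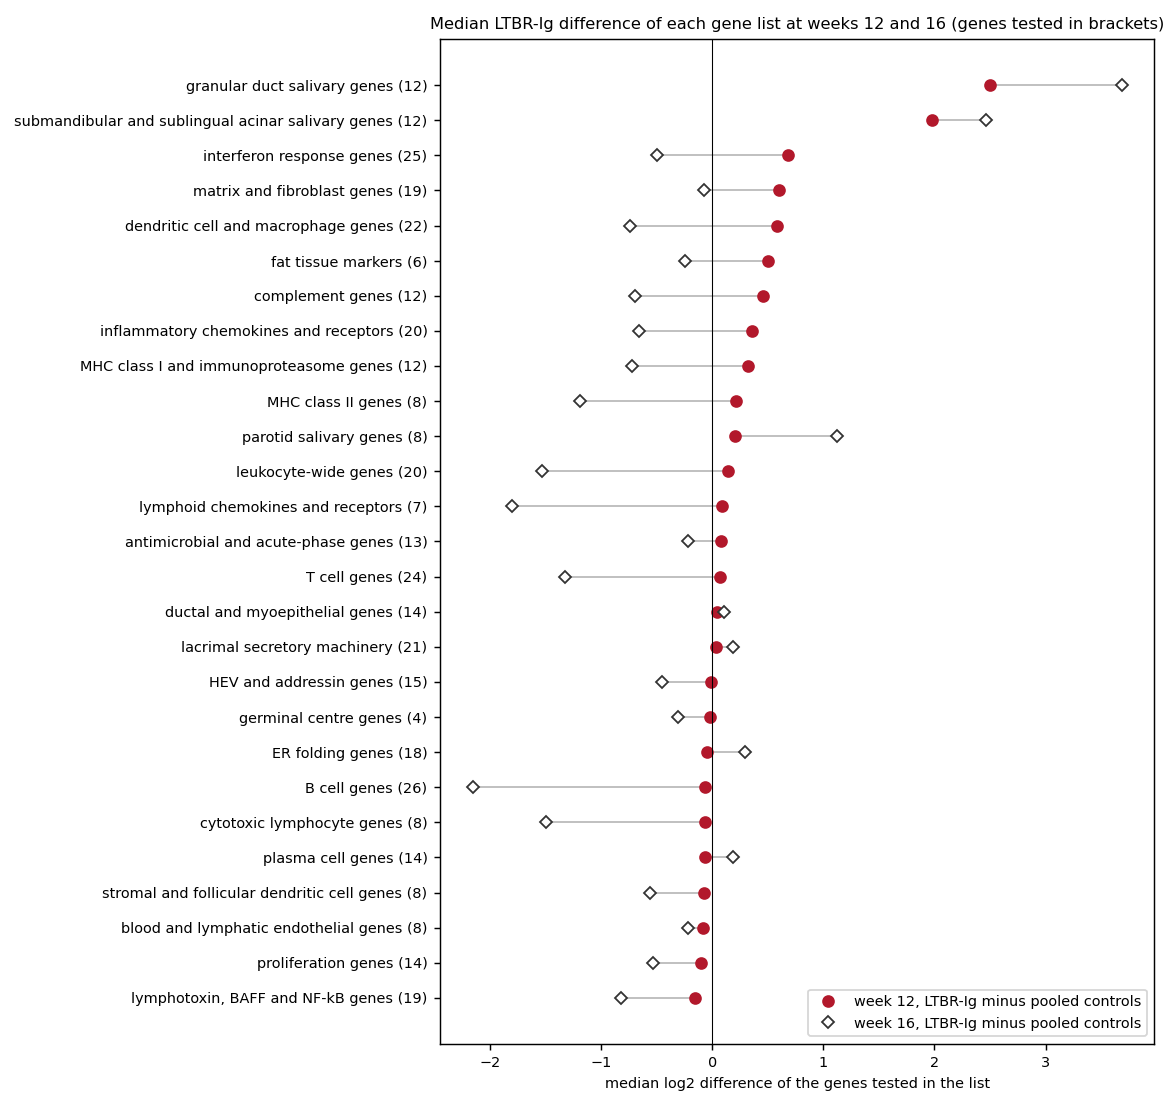
Median log2 difference, LTBR-Ig minus pooled controls (horizontal axis), of the tested genes of each list with at least 4 of them, at week 12 (filled circles) and week 16 (open diamonds). B cell genes stand at -0.06 at week 12 and -2.16 at week 16, and the granular duct salivary genes are the highest list at both weeks. Some arrays of both weeks were high in Amy1.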

How the data were processed

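The values are log2 expression as the authors deposited it, background corrected and normalized together with GCRMA, whose version is not given in the sources used here, for 61 arrays of 45101 probe sets. A probe set was tested if at least 2 of the 11 week 12 lacrimal arrays read over 4, which held for 19439. All 31 lacrimal arrays entered 1 linear model with an intensity trend (limma 3.58.1, R 4.3.3), with group means and the controls of weeks 12 and 16 pooled. Calls needed a difference of at least 2-fold and a p under 0.05 after Benjamini-Hochberg adjustment. Each gene was represented by the brightest of its probe sets among the 34958 that carry 1 symbol in GEO's platform annotation, which gives 932 others several and does not list 9211. The number of arrays limits the precision. The comparison, the 31 gene lists and the rule for named genes were chosen with earlier results of these data known. The rule took 26 fixed genes, the 10 largest rises and falls without overlap, up to 4 genes a list, and the 5 genes with the smallest p in each direction of the test between weeks. Genes outside it were named after their values were seen. The pipeline was tested on simulated data.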

Additional observations from a re-analysis of the deposited data

Results flagged for a closer look

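Within a group a single array stood far from the others in 17 of 344 sets of values examined. This is near the share of about 1 in 20 that chance gives. Among the LTBR-Ig arrays, replicate 1 was high for Chst2 (4.43), Pla2g2d (2.88) and Reg3g (3.62), replicate 2 was high for Slamf7 (5.07) and low for Enpep (7.21), replicate 3 was low for Serpina1b (5.64) and replicate 4 was high for Sox10 (6.02). Among the controls, MOPC-21 replicate 3 was low for Ccl6 (4.32), Col1a1 (3.08), Col3a1 (8.93) and Pmp22 (5.53). MOPC-21 replicate 4 was high for Ccl3 (3.91) and Csf3r (4.03), and MOPC-21 replicate 2 was high for Selp (3.23). Untreated replicate 3 was low for Cx3cr1 (3.96) and Enpep (8.28) and high for Saa3 (3.91). No named gene passed the test of a difference between week 12 and week 16, and none lay wholly above the controls at one week and wholly below them at the other.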

How the results depend on the processing

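The counts depended on the source of the spread and on the arrays. Against the 11 probe sets called, the 4 distinct list genes called of 392 and the 9 named genes called, the counts were 0, 0 and 0 with only the week 12 arrays in the fit, 1, 1 and 1 against untreated mice alone, 7, 1 and 1 without arrays high in Amy1, and 6, 2 and 4 with a floor of 6. With the leukocyte covariate, added after seeing the data, they were 54, 14 and 21, and 41, 14 and 21 with the week 12 arrays only. With no fold threshold 26 probe sets passed. Leaving out each array in turn gave 7 to 17 probe sets, 3 to 5 list genes and 5 to 10 named genes, with the lowest count of probe sets without LTBR-Ig replicate 2 and the highest without untreated replicate 3. For MOPC-21 against untreated these omissions gave 0 to 185 probe sets, and for the difference between weeks 0 to 560. Ccl3, Cilp and Csf3r, at 1.0, 0.78 and 0.36, turned to -0.25, -0.076 and -0.016 without arrays high in Amy1. Of the 143 named genes tested 49, Cxcl13 among them and 0 of the 9 called, changed sign in at least 1 setting. The cause of these shifts was not tested. The other planned settings kept the 3 counts of the LTBR-Ig comparison within 1.5 times, though not always the same genes: against MOPC-21 alone 10 probe sets were called, of which 7 were among the 11.

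Replicate numbers were not treated as pairs. Same-numbered week 12 arrays had correlations of their deviations from -0.47 to 0.76 over 10 pairs, and differently numbered ones from -0.60 to 0.61 over 30. As these ranges overlap, they cannot settle whether the numbers pair the samples. Amy1 was highest in the lowest-numbered array of each group. It was 13.82 in LTBR-Ig replicate 1, 13.87 in MOPC-21 replicate 1 and 12.49 in untreated replicate 2. With the replicate block 16 probe sets, 5 list genes and 10 named genes were called, against 11, 4 and 9 without it, and the difference between weeks gave 4 probe sets against 0.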
